A study of Rattus norvegicus with 8 samples.

Results

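Gene expression was compared between the supine and the prone body position in mechanically ventilated rat lungs. The comparison rests on 6 of the 8 arrays of the study, the 3 whose titles read Supine - SVt and the 3 whose titles read Prone - HVt, and on every probe set of the table. All animals were male Sprague-Dawley rats weighing 340 to 400 g, and RNA came from the dorsal-caudal quadrant of the lung. Both ventilated groups carry the label High Vt, a tidal volume of 18 mL per kg given at 40 breaths per minute for up to 3 hours, with end-expiratory pressure at 0 cmH2O. The groups share the tidal volume, anaesthesia, tracheotomy and jugular cannulation, and differ in position. The labels do not spell out SVt in the supine titles, or how long each rat was ventilated. The remaining 2 arrays are non-ventilated controls, whose values are given beside some of the results. Their spread also enters the standard errors, intervals and p-values of the main model, which was fitted over all 8 arrays. The titles number the samples as biological replicates, so p-values measure the spread between these samples, and with 3 arrays a group the precision is limited. The series title asks how MAP kinase phosphatase-1 shapes regional effects of injurious ventilation, and this comparison bears on whether position altered transcript levels in 1 region.

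Large breaths overstretch the alveolar wall, and the dorsal lung lies lowest in a supine animal and uppermost in a prone one. Stretched or stressed cells switch on immediate early genes, transcription factors such as Fos and Egr1 that need no new protein to be made, and heat shock factors switch on chaperones that refold damaged proteins. Dusp1, the gene of MAP kinase phosphatase-1, is itself an early response gene, and its product removes phosphate from MAP kinases and so ends their signal.

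Values are log2 expression levels, and a difference is the supine mean minus the prone mean, so that a negative value is a lower level in supine lungs. Errors after ± are standard errors of the model unless SD is stated. Lung genes were high on all 8 arrays: Sftpc, which encodes surfactant protein C, read 15.02 to 15.51 and the club cell gene Scgb1a1 15.35 to 15.72. Supine replicate 3 and prone replicate 2 stood apart in control probe sets or in transcripts of liver, heart muscle or airway. On supine replicate 3 the 3′ actin control probe set lay 9.10 above the 5′ one and the GAPDH pair differed by 8.41, while the other ventilated arrays gave at most 4.64 and 1.92. That array also carried transcripts of liver and heart muscle, with Alb (albumin) at 12.44, Ttr (transthyretin) at 9.94 and Myh6 (atrial myosin) at 8.87. Prone replicate 2 read 9.87 for Myh6, 8.27 for Alb and 13.71 for the airway secretory gene Bpifa1. On the other ventilated arrays Myh6 was at most 2.79, and Alb at most 2.35 apart from 5.54 on prone replicate 3. Many of the results that rest on these arrays are given without them as well. In bulk tissue fewer cells of a type and less RNA per cell cannot be told apart.

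No probe set separated the positions after correction for multiple tests. By limma with Benjamini-Hochberg adjustment 0 of 16896 probe sets passed, and the smallest adjusted p was 0.942. Without adjustment 691 probe sets (4.09%) had p under 0.05, of which 440 (2.60% of those tested) were higher and 251 (1.49%) lower in supine lungs. With the arrays centred on their medians there were 658, of which 349 were higher, and with the replicate number as a block 1324 (7.84%), again with 0 past adjustment. Fitted on the 6 ventilated arrays alone, without the spread of the controls, the model gave 400. With 1 array left out, 3 probe sets passed without prone replicate 1 and 1 each without prone replicate 2 or supine replicate 2, and the 691 became 270 (without prone replicate 3) to 2265 (without prone replicate 1); the counts were 284 without prone replicate 2 and 1629 without supine replicate 2. The standard error of a difference was 0.41 for the median probe set, which gives a 95% interval of 0.96 on either side, and 90.5% of probe sets differed by less than 1. Each difference below is therefore a description of these 6 lungs, and none passed the adjusted threshold.

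Dusp1 was higher in all 3 prone lungs than in any supine lung. Its level was 13.98, 14.14 and 14.32 on prone replicates 1 to 3 and 13.10, 13.12 and 13.74 on supine replicates 1 to 3, with the non-ventilated lungs at 14.12 and 13.44. The prone arrays lay close together, and the highest supine array was the degraded replicate 3. The difference was -0.83 ± 0.31 (95% interval -1.55 to -0.11), a level 1.78-fold higher in prone lungs (limma, unadjusted p = 0.0299, adjusted p = 0.942). The exact two-sided permutation test over the 6 lungs gave p = 0.1, the smallest that 3 against 3 can give. A second, dimmer Dusp1 probe set read 7.61, 8.71 and 9.19 in prone and 2.62, 7.17 and 2.60 in supine lungs, a difference of -4.37 ± 1.18. Both probe sets thus had every prone array above every supine array and differed in the size of the gap. The values of 2.62 and 2.60 lie near the bottom of the scale, on supine replicates 1 and 3. Those arrays had the largest 3′ minus 5′ differences, at 4.64 and 9.10 for actin and 1.92 and 8.41 for GAPDH. Supine replicate 2 read 7.17, against 7.61 on prone replicate 1. The part of RNA quality in this gap was not tested. Without supine replicate 3 the first probe set stood at -1.04.

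The other MAP kinase phosphatases showed no common direction. Of 14 tested, 9 averaged higher and 5 lower in supine lungs, close to the 57.2% higher and 42.8% lower among all 10240 genes, and the median was 0.09 against 0.07. Dusp1 was the 1 member (7.14%) with an unadjusted p under 0.05 and lower in supine lungs, against 1.11% of all genes. Dusp14 read 8.09, 8.18 and 7.24 in prone and 8.99, 9.32 and 7.87 in supine lungs, a difference of 0.89 ± 0.45 in the direction opposite to that of Dusp1 (0.59 without supine replicate 2 or prone replicate 3). Dusp6, a phosphatase for ERK, was abundant and close in both positions, at 12.60 to 13.20 in prone and 12.98 to 13.25 in supine lungs. Dusp9 differed by 2.41 ± 1.17, and without supine replicate 3, its highest array at 9.26, by 1.33. Dusp5 stood at 0.42 ± 0.75 and turned to -0.20 without that array. Dusp2, a phosphatase of leukocytes, stood at 1.02 ± 1.01 and ranged from 0.22 without prone replicate 3 to 2.13 without prone replicate 1. The MAP kinases and the kinases above them, which these phosphatases act on or lie below, had 11 of 16 members higher and 5 lower, a median of 0.16 and 0 members at an unadjusted p under 0.05 by limma.

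Dusp1 stood among early response genes that also averaged lower in supine lungs. Of 24 AP-1 and immediate early factors tested, 18 averaged lower and 6 higher, with a median of -0.73; on centred arrays 19 and after a further quantile normalization 17 averaged lower. Every prone array lay above every supine array for 5 of them (20.8%), against 1.94% of all genes, and 0 passed adjustment. The gene lists of this report were chosen with earlier results of these data known. Shares of a list set against all genes are therefore descriptions and no test. The list median of each array, relative to the mean of each gene over the 6 lungs, was 0.83, 0.18 and 0.16 in prone and -0.04, -1.30 and 0.37 in supine lungs, so the lists of the positions overlapped and supine replicate 2 lay lowest. Without supine replicate 2 the median was -0.27 with 14 of 24 lower, without prone replicate 1 it was -0.48, and without supine replicate 3 it was -1.0 with 20 lower.

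Nr4a1, an orphan nuclear receptor of the early response, had the widest separation in this list. It read 12.13, 12.38 and 11.82 in prone and 8.70, 7.74 and 9.84 in supine lungs, against 10.25 and 7.75 in the non-ventilated ones. The difference of -3.35 ± 0.73 corresponds to a level 10.2-fold higher in prone lungs (unadjusted p = 0.00213), and the supine arrays all lay below the higher of the non-ventilated lungs. Its relative Nr4a3 read 8.97, 10.47 and 9.76 in prone and 6.01, 3.56 and 10.68 in supine lungs. Here the degraded supine replicate 3 was the highest of the 6, so the groups overlapped and the difference of -2.98 ± 1.58 became -4.95 without that array and -1.39 without supine replicate 2. Nr4a2 differed by -1.64 ± 0.82 and overlapped on supine replicate 3, with prone arrays from 7.90 to 9.07 and supine arrays from 5.03 to 8.58; it stood at -0.71 without supine replicate 1 and at -2.48 without supine replicate 3.

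Among the AP-1 factors, which pair as Fos and Jun proteins on DNA, Fos was uniform in prone and dispersed in supine lungs. It read 13.83, 13.51 and 13.55 in prone and 11.82, 9.86 and 13.39 in supine lungs, a difference of -1.94 ± 0.78. Junb read 11.82, 10.90 and 10.66 against 10.58, 9.06 and 7.71, a difference of -2.01 ± 0.69. Jun, with 12.90, 14.12 and 14.25 in prone and 11.67, 12.99 and 10.68 in supine lungs, overlapped by 1 array and differed by -1.98 ± 0.62. The SD of Fos was 0.18 in prone and 1.77 in supine lungs, and the model takes 1 spread for both groups. Fosb differed by -2.86 ± 1.15, Egr1, a zinc finger factor, by -1.59 ± 0.69 and Atf3, a stress-induced partner of Jun, by -1.75 ± 0.77. Without supine replicate 2 these differences were smaller, at -1.02 for Fos, -1.87 for Fosb, -0.83 for Egr1 and -0.88 for Atf3. Without supine replicate 3 Junb stood at -1.31 and Jun at -1.43. Klf6 read 12.69 to 12.95 in prone and 12.09 to 12.51 in supine lungs, a gap small in size (-0.57 ± 0.24) but without overlap. Fosl1 went the other way at 2.04 ± 1.53, with 7.83, 5.54 and 2.64 in prone and 8.13, 4.61 and 9.40 in supine lungs, and its groups overlapped; it was 1.03 without supine replicate 3 and 0.70 without prone replicate 3. The remaining 13 members lay between -1.19 and 0.84.

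**Figure D1:**
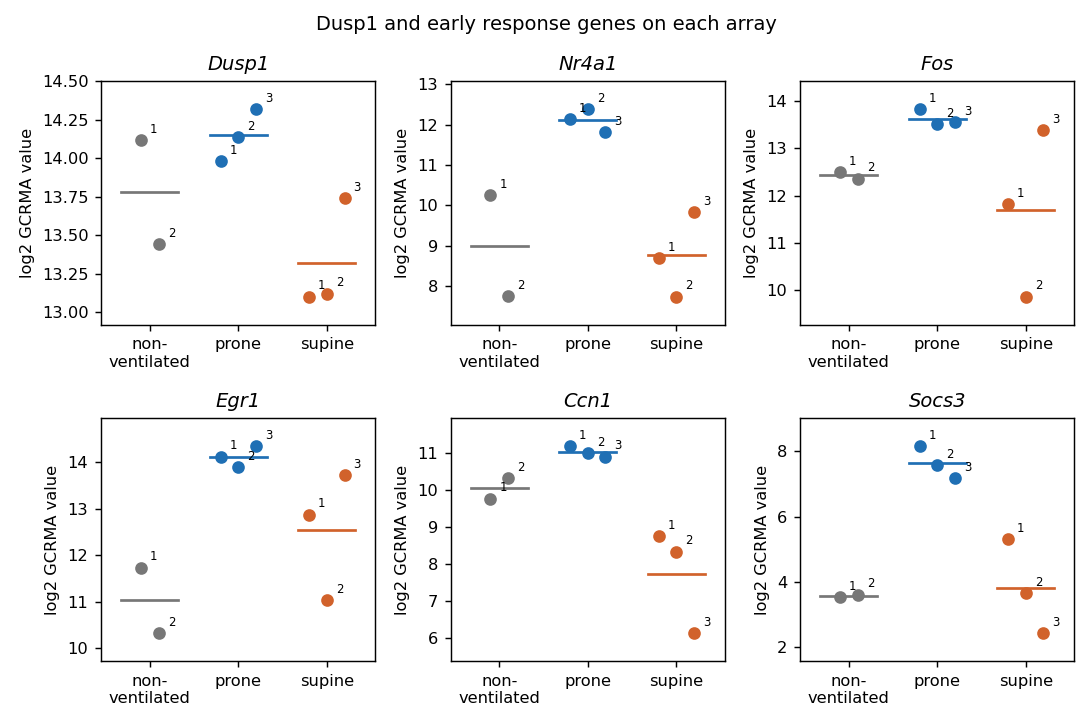
Log2 GCRMA value (y axis, a separate range per panel) of Dusp1, Nr4a1, Fos, Egr1, Ccn1 and Socs3 on each array, by group (x axis); points are arrays labelled by replicate number and bars are group means. In all 6 panels the 3 prone arrays lie above the 3 supine arrays, and the prone arrays of Dusp1 sit between 13.98 and 14.32 against 13.10 to 13.74 in supine lungs. Nr4a1, Ccn1 and Socs3 were named from genes without overlap, and Egr1 was chosen after its values were seen. Of the 24 early factors tested, 5 did not overlap.

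The 250 bases before the start of Dusp1 and of Nr4a1 are shown because both genes were separated by position and hold TGACG, the core of the cAMP response element through which CREB-type factors drive many early genes. Capitals mark TGACG on either strand (CGTCA is its reverse complement); in Dusp1 the pair of overlapping matches from -124 to -117, counted from the start, forms the full element TGACGTCA. Sequences are from RefSeq on GRCr8, 5′ to 3′ on the gene's strand, Dusp1 at chr10:17184603-17184852 (+) and Nr4a1 at chr7:134259888-134260137 (+).
Dusp1: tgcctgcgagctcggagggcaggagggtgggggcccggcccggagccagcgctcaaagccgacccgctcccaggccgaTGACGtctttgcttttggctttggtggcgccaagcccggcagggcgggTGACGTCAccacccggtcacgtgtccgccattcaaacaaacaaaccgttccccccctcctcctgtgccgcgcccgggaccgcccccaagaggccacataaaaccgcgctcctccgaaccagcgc
Nr4a1: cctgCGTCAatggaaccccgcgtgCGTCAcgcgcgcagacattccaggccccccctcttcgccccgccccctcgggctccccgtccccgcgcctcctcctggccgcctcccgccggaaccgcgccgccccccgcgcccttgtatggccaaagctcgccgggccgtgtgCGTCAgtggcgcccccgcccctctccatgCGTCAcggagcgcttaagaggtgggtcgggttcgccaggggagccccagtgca
TGACG on either strand lay in 10 of the 15 early factors with a promoter in the table (66.7%), against 18.2% of all 33469 promoters over the same length. It lay in 50% of the heat shock list, 38.5% of the MAP kinase phosphatases and 30.0% of the stretch list, so each list read stood above all promoters. All promoters include those of genes that were not tested. Among the early factors the full element TGACGTCA lay in 3 of 15 (20.0%), against 1.59% of all promoters. The CArG box, the site of serum response factor, lay in 4 of 15 (26.7%), against 1.5%. A match is a run of letters and no measure of binding.

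Socs3 and Ccn1 also differed in the direction of Dusp1, without overlap. Socs3, which blocks signalling from the interleukin-6 receptor, read 8.17, 7.59 and 7.19 in prone and 5.32, 3.66 and 2.42 in supine lungs, with the non-ventilated lungs at 3.53 and 3.61. Its difference of -3.85 ± 0.68 (unadjusted p = 0.000616) was the most negative among all 10240 genes, and it was -3.16 without supine replicate 3. Il6 itself, the cytokine that induces Socs3, gave no such pattern, with 13.35, 12.82 and 6.46 in prone and 12.23, 4.05 and 12.42 in supine lungs. Its groups overlapped over most of their range, and the difference of -1.31 ± 2.61 turned to 1.45 without supine replicate 2. Over 11 genes of the interleukin-6 family and its SOCS feedback the median was -0.35, which became 0.17 without prone replicate 1 and -1.10 without supine replicate 1. Ccn1, a matricellular protein made on stretch, read 11.18, 10.98 and 10.89 in prone and 8.75, 8.33 and 6.13 in supine lungs, against 9.76 and 10.31 without ventilation. All 3 supine lungs were thus below the non-ventilated ones and all 3 prone lungs above them, with a difference of -3.28 ± 0.65 (unadjusted p = 0.00116). The difference was -2.48 without supine replicate 3.

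The list of stretch, YAP and matricellular targets to which Ccn1 belongs did not share one direction. Of 15 tested, 10 averaged lower and 5 higher in supine lungs (median -0.22, or -0.06 after a further quantile normalization and -0.52 without prone replicate 3), and 4 (26.7%) had an unadjusted p under 0.05 and a lower mean, against 1.11% of all genes. These were Ccn1, the growth factor Hbegf (8.15, 9.22 and 9.10 in prone, 7.14, 5.81 and 7.78 in supine lungs; -1.91 ± 0.54), the YAP-linked Amotl2 (-1.12 ± 0.42) and the muscle stress gene Ankrd1 (-0.99 ± 0.36). Tnc, which encodes the matrix protein tenascin C, was on the other side, with all supine arrays at 9.58 or above and prone arrays at 8.27 to 9.50, a difference of 1.30 ± 0.61 that was 0.74 without supine replicate 3. Sik1, Jdp2 and Tnfaip6 were named for their difference in this direction. The kinase gene Sik1, a target of cAMP signalling, read 9.41, 9.59 and 8.85 in prone and 7.93, 8.08 and 7.92 in supine lungs (-1.31 ± 0.28). The AP-1 repressor Jdp2 differed by -3.08 ± 0.86, or -2.22 without supine replicate 3. The hyaluronan-binding Tnfaip6 differed by -2.55 ± 0.78, or -1.64 without supine replicate 2. Neither had overlapping groups.

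Heat shock chaperones and co-chaperones gave the widest shift of a list between the positions. Of 23 tested, 21 averaged lower in supine lungs and 2 higher, on the deposited scale, on centred arrays and after a further quantile normalization. The median was -1.15, against 0.07 over all genes. For 10 of them (43.5%) every prone array lay above every supine array, against 1.94% of all genes. As this list was chosen with earlier results of these data known, the share is no independent test. An unadjusted p under 0.05 and a lower mean were found for 13 members, against 1.11% of all genes, and 0 passed adjustment. The 13 became 7 without prone replicate 2, prone replicate 3 or supine replicate 1. The 114 of all genes became 51, 70 and 137 in these settings. The list median of each array was 0.12, 0.84 and 0.74 in prone and -1.06, -0.76 and -0.18 in supine lungs, with the non-ventilated lungs at -1.70 and -1.51. All supine lungs thus lay between the non-ventilated and the prone ones. Without supine replicate 3 the median was -1.47 and 19 of 23 did not overlap (82.6%, against 4.77% of all genes), and without prone replicate 2 the median was -0.96.

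Stip1, which passes client proteins from Hsp70 to Hsp90, had the smallest unadjusted p of the list. It read 13.45, 13.84 and 14.04 in prone and 12.07, 11.91 and 11.05 in supine lungs, with the non-ventilated lungs at 11.09 and 11.08. The difference was -2.09 ± 0.34 (unadjusted p = 0.000372), a level 4.27-fold higher in prone lungs, and it was -1.78 without supine replicate 3. Fkbp4, an immunophilin of the Hsp90 complex, was nearly uniform in supine lungs at 10.52, 10.70 and 10.67, against 11.75, 13.07 and 12.95 in prone ones (-1.96 ± 0.39). The small heat shock protein gene Hspb8 read 11.33, 13.19 and 13.35 in prone and 9.82, 10.20 and 10.64 in supine lungs (-2.40 ± 0.56). Its partner Bag3 read 12.71, 14.50 and 14.63 in prone and 10.52, 11.11 and 13.35 in supine lungs and overlapped on supine replicate 3 only (-2.29 ± 0.81). Prone replicate 1 was the lowest prone array for each of these 4 genes.

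The Hsp40 family, which delivers clients to Hsp70, showed the same order. Dnaja4 read 12.44, 13.97 and 13.97 in prone and 10.52, 11.37 and 11.61 in supine lungs (-2.29 ± 0.51). Dnajb1 (-2.02 ± 0.50) and Dnajb4 (-1.66 ± 0.40) also did not overlap. The inducible Hsp70 gene Hspa1a was near the top of the scale in prone lungs at 14.61, 15.20 and 15.23 and read 11.75, 13.51 and 14.80 in supine ones. Its groups overlapped on supine replicate 3, the difference was -1.66 ± 0.74 (-0.86 without supine replicate 1), and its near-identical copy Hspa1b may share its probes. Hsph1, a nucleotide exchange factor for Hsp70, read 14.07, 14.93 and 15.02 against 12.56, 12.95 and 14.54 (-1.32 ± 0.54), while its second probe set gave -3.60 ± 0.71. Hspa4, of the same family as Hsph1, differed by -1.22 ± 0.41.

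Hsp90ab1, the constitutive Hsp90, read 14.59 to 15.09 in prone and 13.51 to 14.54 in supine lungs (-1.03 ± 0.35). Ahsa1, which activates the Hsp90 ATPase, stood at -0.91 ± 0.31 and Serpinh1, the collagen chaperone, at -0.92 ± 0.29, both without overlap. Chordc1, an Hsp90 cofactor, stood at -1.15 ± 0.47 and overlapped. The 2 members with higher means in supine lungs were the regulators Hsf1 (0.39 ± 0.55) and Hsf2 (0.33 ± 0.26), the heat shock factors. Hsf1 was at -0.08 without supine replicate 1, and Hsf2 at 0.15 without supine replicate 3. The remaining 7 members lay between -1.93 and -0.22. A probe set for 5S ribosomal RNA and the spike-in controls followed part of this order: the 5S probe set read 4.41, 10.35 and 9.88 in prone and 5.23, 5.17 and 8.75 in supine lungs. With the spike-in level of each array as a covariate the list median was -1.14, and the part of 5S RNA in the result was not tested.

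**Figure D2:**
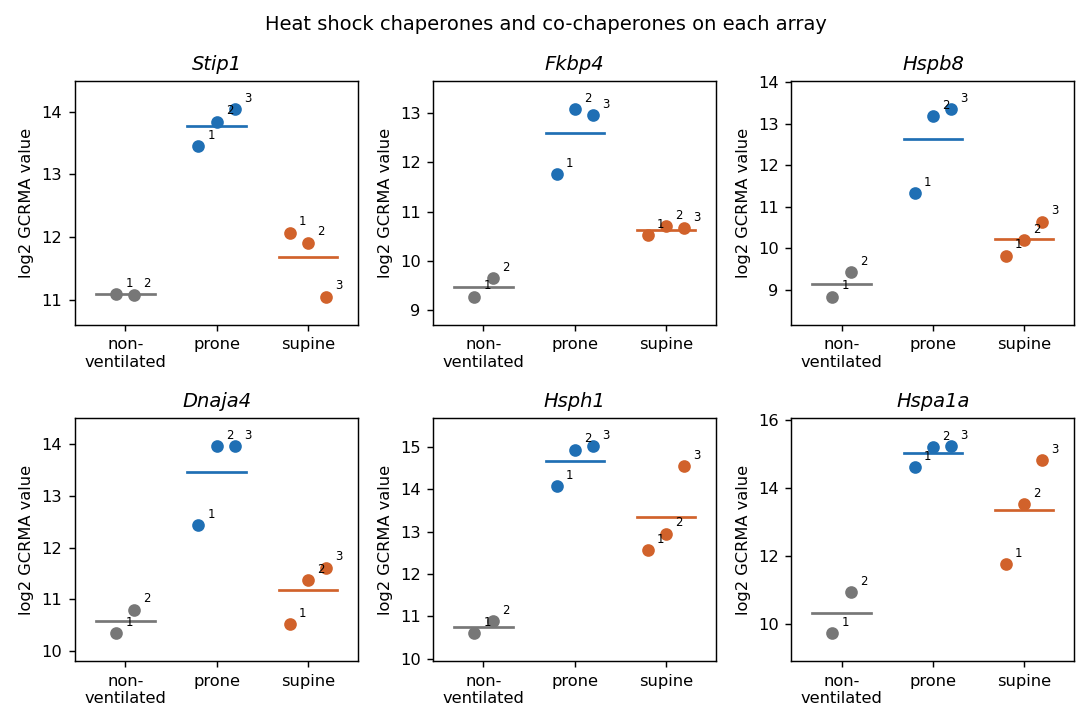
Log2 GCRMA value (y axis, a separate range per panel) of Stip1, Fkbp4, Hspb8, Dnaja4, Hsph1 and Hspa1a on each array, by group (x axis); points are arrays labelled by replicate number and bars are group means. Supine lungs lie below prone lungs without overlap for Stip1, Fkbp4, Hspb8 and Dnaja4, and supine replicate 3 reaches the prone range for Hsph1 (14.54) and Hspa1a (14.80). Stip1, Fkbp4, Hspb8 and Dnaja4 were named from genes without overlap.

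**Figure D3:**
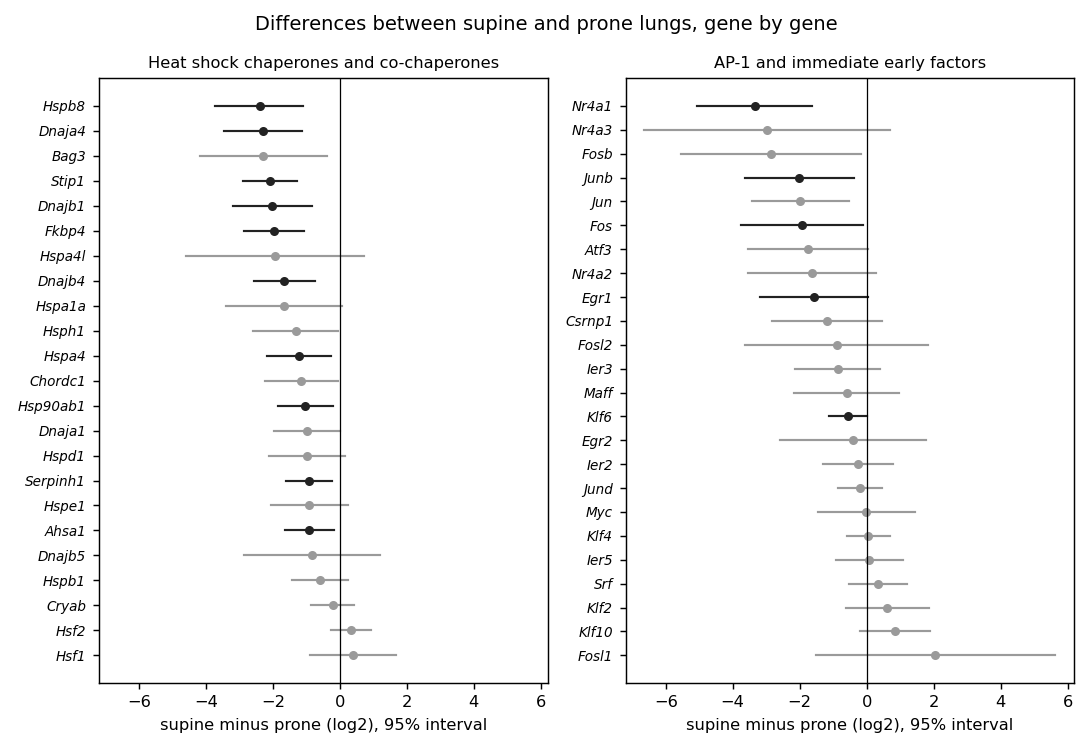
Supine minus prone difference on the log2 scale (x axis) for each of 23 heat shock genes (left) and 24 AP-1 and immediate early factors (right); points are differences, lines their 95% intervals from limma, and black marks genes whose 3 prone and 3 supine arrays do not overlap. In the heat shock list 21 of 23 points lie below 0, and in the early list 18 of 24.

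Heat shock factors bind inverted repeats of the unit GAA. The 250 bases before the start of 3 chaperone genes of this list are shown for this site, with capitals marking facing units, GAANNTTC or TTCNNGAA, both read on either strand since each is its own reverse complement. They are from RefSeq on GRCr8, 5′ to 3′ on the gene's strand, Hsph1 at chr12:10427118-10427367 (+), Stip1 at chr1:213657655-213657904 (-) and Hspb8 at chr12:45837058-45837307 (+).
Hsph1: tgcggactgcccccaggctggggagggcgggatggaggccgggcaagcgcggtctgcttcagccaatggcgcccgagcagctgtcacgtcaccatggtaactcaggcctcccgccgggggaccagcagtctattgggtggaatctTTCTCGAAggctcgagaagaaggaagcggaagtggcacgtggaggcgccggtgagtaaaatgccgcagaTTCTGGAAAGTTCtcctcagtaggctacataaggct
Stip1: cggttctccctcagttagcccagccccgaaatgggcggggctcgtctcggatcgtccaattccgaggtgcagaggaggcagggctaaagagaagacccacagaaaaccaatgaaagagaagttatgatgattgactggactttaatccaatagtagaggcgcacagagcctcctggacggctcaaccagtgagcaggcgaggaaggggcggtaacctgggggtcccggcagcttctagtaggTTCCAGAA
Hspb8: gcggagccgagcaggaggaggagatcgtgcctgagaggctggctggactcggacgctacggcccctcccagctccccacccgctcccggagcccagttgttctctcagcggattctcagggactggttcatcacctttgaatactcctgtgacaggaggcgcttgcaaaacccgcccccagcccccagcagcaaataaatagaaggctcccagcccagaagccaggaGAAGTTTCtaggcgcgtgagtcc
In Hsph1 the overlapping matches from -36 to -24 join into 3 units, TTCTGGAAAGTTC, and the match of Stip1 ends at the base before the start. A site of 2 units lay in 11 of the 20 heat shock genes with a promoter in the table (55%), against 13.5% of all promoters and 1 of 15 early factors (6.67%). A site of 3 units in alternating direction lay in 4 of 20 (20.0%), against 0.663% of all promoters.

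Ppp1r15a, which restarts translation after stress, read 11.01, 12.07 and 11.90 in prone and 10.35, 8.30 and 9.36 in supine lungs, against 7.92 and 7.41 without ventilation (-2.32 ± 0.55). It belongs to the unfolded protein and ATF4 list, in which 13 of 18 averaged lower (72.2%, against 42.8% of all genes) and it was the 1 member (5.56%, against 1.11%) with an unadjusted p under 0.05 and a lower mean. The list median was -0.30, and -0.59 without prone replicate 3 and -0.06 without prone replicate 1. Dedd2 (-2.25 ± 0.44), Ccdc117 (-2.27 ± 0.49) and Utp23, a ribosome assembly factor (-1.70 ± 0.33), were among the 12 genes with the smallest unadjusted p in this direction. In each of these 3 the prone arrays lay above the supine and the non-ventilated arrays. The growth arrest genes Gadd45a (-1.12 ± 0.40) and Gadd45b (-0.91 ± 0.37) did not overlap, and Gadd45b stood at -0.51 without supine replicate 2. Hmox1, which degrades haem, and Pdk4, which slows pyruvate oxidation, were spread within the groups. Hmox1 read 12.04, 14.26 and 14.22 against 11.79, 9.93 and 13.03 (-1.93 ± 0.88, or -1.10 without supine replicate 2), and Pdk4 read 10.07, 13.62 and 13.98 against 8.87, 11.42 and 10.18 (-2.40 ± 1.08, or -3.64 without prone replicate 1).

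Eicosanoid and mesothelial genes gave single members without overlap. The lipoxygenase gene Alox15 read 6.82, 8.01 and 8.65 in prone and 5.94, 5.98 and 6.73 in supine lungs (-1.61 ± 0.49), whereas thromboxane synthase, Tbxas1, was higher in supine lungs, at 8.92, 8.49 and 8.41 against 7.96, 7.36 and 7.60 (0.97 ± 0.29). Ptgs2, the inducible cyclooxygenase, stood at -1.74 ± 0.79 and overlapped (-0.92 without supine replicate 1). Over the 14 eicosanoid genes the median was -0.22, with 8 lower and 6 higher, but it was 0.25 without supine replicate 3 and 0.05 without prone replicate 1. Msln, the mesothelial surface protein, read 9.03, 10.36 and 8.12 in prone and 7.20, 8.05 and 7.52 in supine lungs (-1.58 ± 0.55, or -0.98 without prone replicate 2). Gpm6a, another mesothelial marker, read 10.07, 10.40 and 9.31 against 8.37, 8.98 and 8.4 (-1.34 ± 0.35), and both groups lay below the non-ventilated 12.26 and 12.29. Of 11 mesothelial genes 8 averaged lower, with a median of -0.33, or -0.16 without prone replicate 2.

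In the other direction, 367 of 10240 genes (3.58%) had every supine array above every prone array, and 239 (2.33%) an unadjusted p under 0.05 and a higher mean. Adamts15, a secreted protease of the matrix, read 9.29, 7.05 and 8.38 in prone and 10.78, 10.93 and 10.23 in supine lungs, with the non-ventilated lungs at 9.87 and 10.15 (2.41 ± 0.55, unadjusted p = 0.00267). Prr5l, a partner of the kinase complex mTORC2, read 6.94, 5.54 and 6.49 against 7.76, 8.21 and 8.57 (1.86 ± 0.41, unadjusted p = 0.00226). Gja4, a connexin of endothelial gap junctions, read 10.68, 9.0 and 9.60 against 11.09, 11.36 and 11.83 (1.67 ± 0.45). The supine arrays of Adamts15 lay above both non-ventilated arrays, and those of the other 2 genes lay on either side of them.

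Rgs4, which shortens signalling by G proteins, had a wide gap and a wide spread, with 3.77, 7.94 and 5.28 in prone and 10.31, 8.97 and 10.25 in supine lungs (4.18 ± 1.13). The histone demethylase gene Kdm5c read 7.83, 7.58 and 7.65 against 8.52, 8.82 and 9.28 (1.19 ± 0.28), but its other probe set gave -0.19 ± 0.24. Ccnt2, a cyclin of transcription elongation, likewise stood at 1.93 ± 0.52 on 1 probe set and at -0.20, -0.83 and -0.12 on the other 3. These genes are therefore uncertain at the level of the gene. Ddx20, an RNA helicase (1.87 ± 0.47), Rcan3, a calcineurin regulator (1.99 ± 0.53), Masp2, a complement protease (1.98 ± 0.54), Evpl, the cornified envelope protein envoplakin (1.23 ± 0.34), and Polr3e, a subunit of RNA polymerase III (1.44 ± 0.41), did not overlap. Absence of overlap was a condition for naming them. Thbd, the endothelial anticoagulant thrombomodulin, read 12.28, 12.17 and 12.42 in prone and 12.52, 13.47 and 13.52 in supine lungs (0.88 ± 0.33). All of these lay below the non-ventilated 13.58 and 13.63. Tcf21, a fibroblast transcription factor, stood at 1.23 ± 0.41 and Gclc, which makes glutathione, at 0.86 ± 0.30, the latter 0.46 as the mean of its probe sets. The large differences of this direction also included Fam227a (2.48 ± 0.87, or 1.59 without prone replicate 3), Lnc215 (2.88 ± 0.93, or 1.76 without supine replicate 3) and, with overlap, the activin antagonist Fst (2.40 ± 0.92, or 1.46 without prone replicate 2). Fasn, fatty acid synthase, stood at 0.88 ± 0.38 and overlapped.

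**Figure D4:**
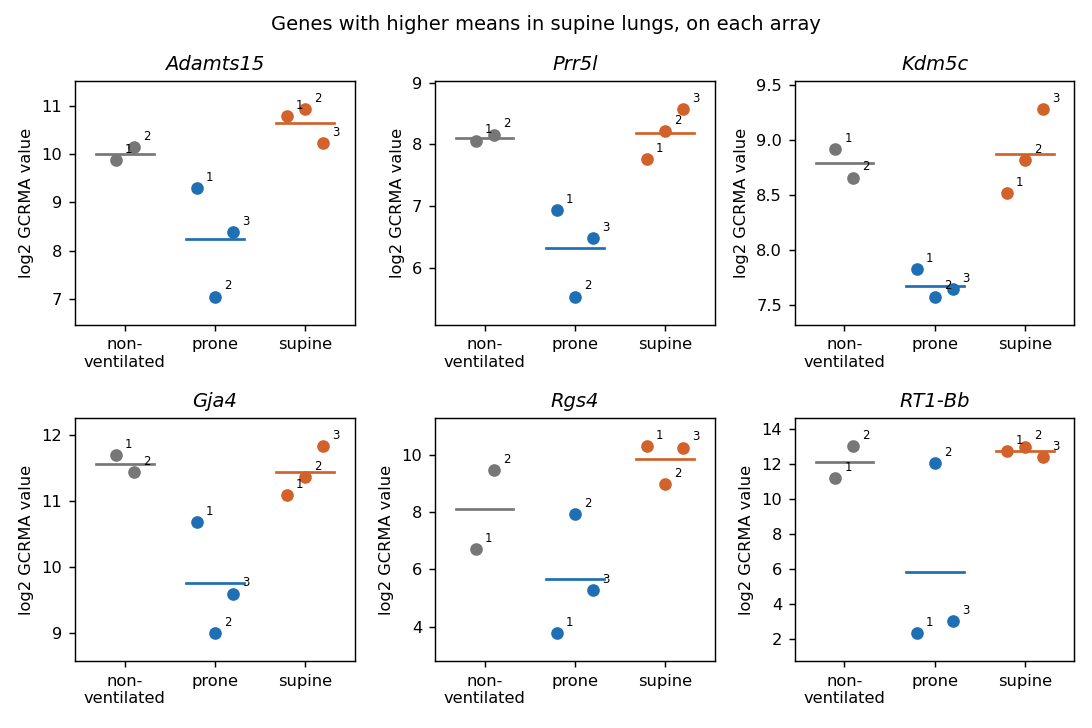
Log2 GCRMA value (y axis, a separate range per panel) of Adamts15, Prr5l, Kdm5c, Gja4, Rgs4 and RT1-Bb on each array, by group (x axis); points are arrays labelled by replicate number and bars are group means. These genes were named from those without overlap, so supine arrays lie above prone arrays in each panel by choice. The RT1-Bb mean of the prone group falls between 1 array at 12.07 and the others at 2.35 and 3.06. Other probe sets gave -0.19 for Kdm5c and -0.40 for RT1-Bb.

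The gene with the largest positive difference was RT1-Bb, a class II histocompatibility chain, at 6.90 ± 2.33. It read 2.35, 12.07 and 3.06 in prone and 12.76, 13.01 and 12.42 in supine lungs, so 2 of the 3 prone arrays were near the bottom of the scale and the third was near the supine arrays. The non-ventilated lungs read 11.23 and 13.05. The second RT1-Bb probe set gave -0.40 ± 0.32. Over the 11 genes of class II presentation, each by its brightest probe set, the median was 0.08, and -0.10 without supine replicate 1. Dimmer probe sets of other class II genes gave 2.26 ± 0.66 and 2.62 ± 1.31, where the ones used gave -0.19 ± 0.25 and -0.35 ± 0.31. Itgal, an integrin of leukocytes, also had a prone array near the bottom of the scale. Prone replicate 1 alone read 1.92 and the rest 8.37 or above (4.15 ± 1.79, or 1.77 without prone replicate 1).

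Lymphocyte genes averaged higher in supine lungs, with none past an unadjusted p of 0.05 by limma. Of 17 tested, 15 averaged higher and the B cell genes Blk (-1.14 ± 0.76, or -0.56 without prone replicate 2) and Cd79b (-0.21 ± 1.16, or 0.94 without prone replicate 2) lower (median 0.89), a count of 15 also reached on centred arrays and after a further quantile normalization; the median was 0.37 without prone replicate 3 and 0.45 without supine replicate 1. With the replicate block 4 of the 17 were higher with an unadjusted p under 0.05, against 5.26% of all genes. The list median of each array was -0.24, 0.47 and -1.28 in prone and 1.14, 0.32 and -0.3 in supine lungs. Both non-ventilated lungs lay above these, at 2.64 and 1.35. The cytotoxic granule gene Gzma read 9.49, 3.22 and 2.11 in prone and 10.18, 7.76 and 7.99 in supine lungs (3.71 ± 1.81). Gzmb read 10.25, 5.79 and 4.07 against 10.30, 8.34 and 9.84 (2.79 ± 1.45). The non-ventilated lungs read 9.76 and 8.28 for Gzma and 9.52 and 8.31 for Gzmb. Nkg7, another granule gene, differed by 2.44 ± 1.49 (1.52 without prone replicate 2, 4.12 without prone replicate 1). Replicate 1 was the highest array of its group for all 3 genes, and from the array set without prone replicate 3 to that without prone replicate 1 the difference went from 2.29 to 5.98 for Gzma and from 1.47 to 4.56 for Gzmb. Klrb1a, a natural killer cell receptor outside the list that was named for its difference, did not overlap, at 6.88, 3.83 and 3.74 against 8.51, 7.60 and 7.08 (2.91 ± 0.90). Its non-ventilated values were 9.36 and 7.85.

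Proliferation and ribosome assembly genes shared a direction with small differences. All 14 cell cycle genes averaged higher in supine lungs (median 0.48), on centred arrays and after a further quantile normalization as well, though only 12 did when prone replicate 1, prone replicate 3 or supine replicate 2 was left out. The cyclins Ccna2 (6.54, 6.09 and 6.18 in prone, 7.40, 7.73 and 7.07 in supine lungs; 1.13 ± 0.28) and Ccnb2 (0.63 ± 0.25) did not overlap. Of 17 ribosome biogenesis genes 15 averaged higher (median 0.64; 13 on centred arrays), and the median was 0.32 without prone replicate 3, 0.37 without supine replicate 1 and 1.05 without prone replicate 1. The helicase gene Ddx21 was the 1 member of these 17 with an unadjusted p under 0.05 and a higher mean (0.88 ± 0.35), against 2.33% of all genes. Its second probe set gave -0.95 ± 0.95. Array medians of the cell cycle list were -0.62 and -0.59 in non-ventilated, -0.49 to -0.07 in prone and 0.11 to 0.37 in supine lungs. Those of ribosome biogenesis were -0.85 and -0.95, -0.91 to 0.39 and -0.38 to 0.66. All 16 cytosolic ribosomal protein genes averaged slightly lower (median -0.16), but only 9 of them did after a further quantile normalization.

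Markers of airway, erythroid and heart muscle cells were also read. All 8 airway genes averaged lower in supine lungs (median -0.49), and without prone replicate 2, the array with high Bpifa1, the median was 0.50 with 6 higher, and without supine replicate 1 it was -0.09 with 4 higher. Foxj1, the factor of ciliated cells, read 9.31, 11.24 and 10.97 in prone and 9.37, 9.70 and 8.42 in supine lungs (-1.34 ± 0.57). All 5 erythroid genes averaged lower (median -1.0), with array medians of -0.74, 0.94 and 1.26 in prone and -1.18, -0.64 and 0.32 in supine lungs. Leaving out prone replicate 3 gave a list median of -0.62, and leaving out prone replicate 1 one of -1.6. Alas2, the haem synthesis enzyme, differed by -1.15 ± 0.53, or -0.70 without supine replicate 1. The heart muscle list had a median of -0.31 over 6 genes, with array medians of 3.22 on prone replicate 2 and 2.31 on supine replicate 3 against -1.90 to -1.25 on the other ventilated arrays.

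Lists of inflammation had medians near that of all genes, which moved widely when 1 array was left out. Chemokines had a median of -0.01 over 21 genes, interleukin-1 and tumour necrosis factor genes 0.03 over 12, NF-kappaB genes 0.09 over 13 and neutrophil genes -0.06 over 10, with 0 members of any of them at an unadjusted p under 0.05 by limma. With 1 array left out the medians ranged from -0.98 to 1.22 for chemokines, from -0.14 to 0.78 for interleukin-1 and tumour necrosis factor genes, from -0.40 to 0.70 for NF-kappaB genes and from -0.65 to 0.83 for neutrophil genes. Of the chemokines, 17 of 21 averaged higher without prone replicate 1 and 16 of 21 lower without prone replicate 3. Il1b, the main secreted interleukin-1, read 13.14, 11.67 and 11.83 in prone and 11.95, 11.02 and 11.60 in supine lungs (-0.69 ± 0.53, or -0.22 without prone replicate 1 and -0.44 without supine replicate 2). In each of these 4 lists replicate 1 had the highest array median of both positions: the chemokine medians were 1.92 and 2.02 on replicate 1 of the prone and the supine group and -2.10 to -0.38 on the other ventilated arrays. For the median chemokine gene the 95% interval reached 3.28 on either side, so differences below that size could not be resolved. Interferon genes had a median of 0.53 that turned to -0.44 without prone replicate 2 and to -0.22 without supine replicate 1.

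Alveolar type 1 genes had a median of 0.05 over 11 genes, alveolar type 2 and surfactant genes 0.09 over 13, endothelial genes 0.11 over 12 and lung fluid transport genes -0.06 over 13. With 1 array left out these medians stayed between -0.33 and 0.33. For the median type 1 gene the 95% interval reached 0.69 on either side. Slc34a2, the phosphate carrier of type 2 cells, read 14.15, 13.06 and 13.88 in prone and 13.99, 14.50 and 14.31 in supine lungs (0.57 ± 0.34, or 0.25 without prone replicate 2). The chloride carrier gene Slc12a2 had every supine array above every prone array, at 12, 12.39 and 12.31 against 11.72, 11.81 and 11.90, with a difference of 0.43 ± 0.24. Junction genes had a median of 0.00 over 18, and their claudin Cldn4 read 6.02, 7.73 and 3.89 in prone and 7.75, 7.48 and 7.85 in supine lungs (1.82 ± 0.85, or 0.82 without prone replicate 3). Every other list not described above had a median between -0.57 and 0.35.

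**Figure D5:**
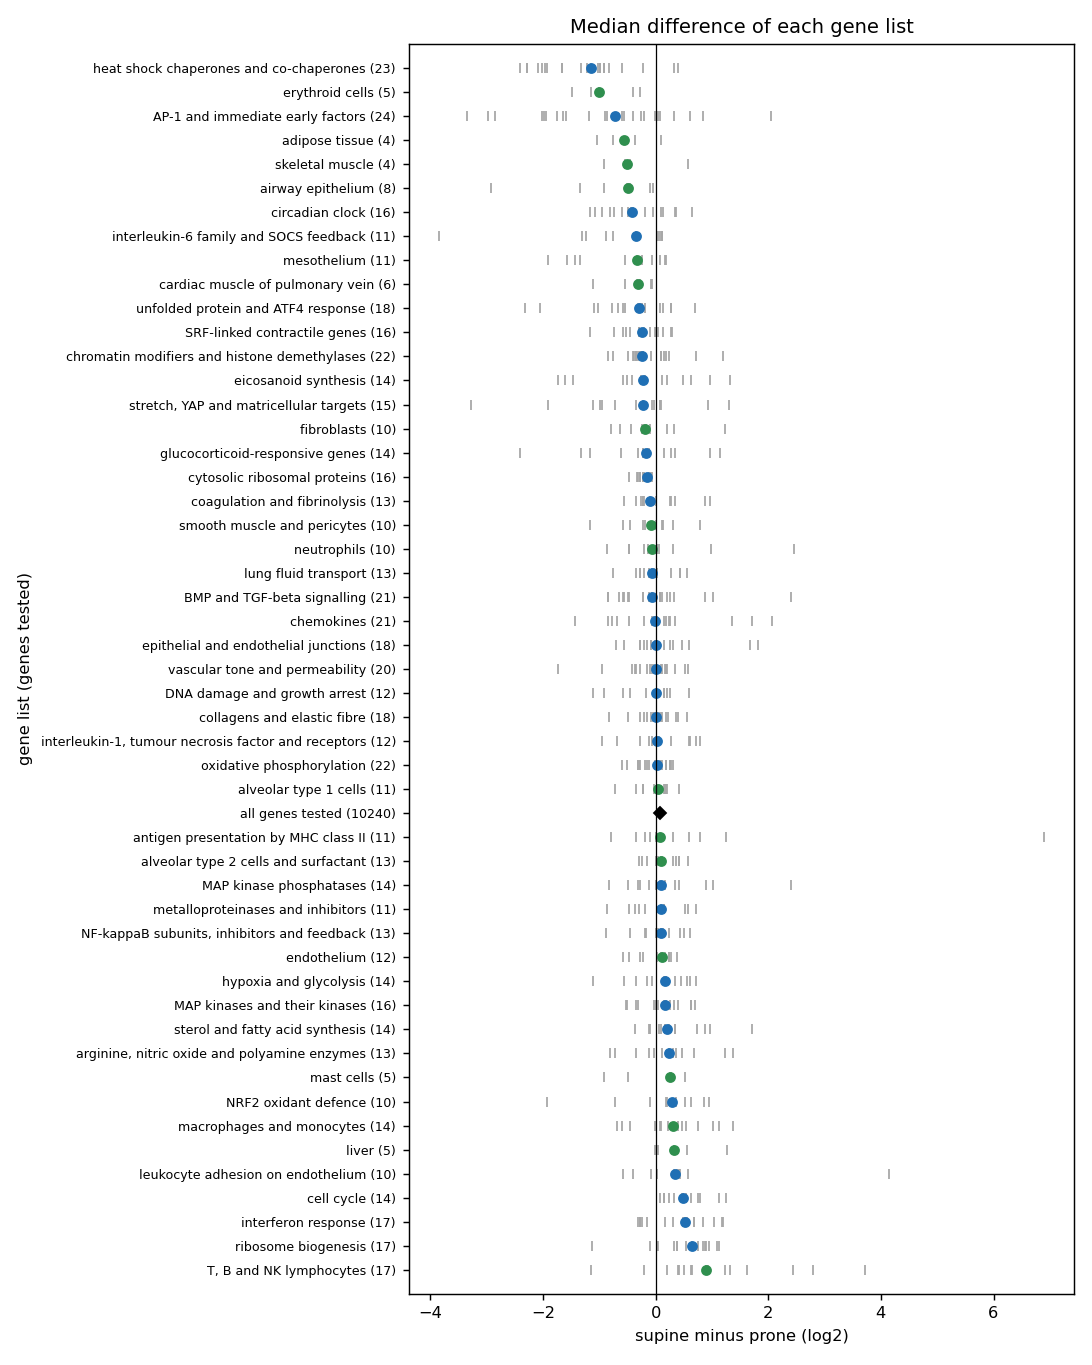
Supine minus prone difference on the log2 scale (x axis) for 50 gene lists (y axis, with the number of genes tested); grey ticks are genes, blue circles medians of function lists, green circles medians of cell type lists, and the black diamond the median of all 10240 genes (0.07). The heat shock list lies lowest at -1.15, and lymphocyte genes highest at 0.89.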

How the data were processed

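Biotin-labelled targets from 300 ng of total RNA per lung sample were hybridised to 1-colour Affymetrix rat arrays. The values the authors deposited are log2 expression levels, made with GCRMA (background correction, quantile normalization and summary of the probes of a probe set), and Partek 6.5 was used, per the submitters' processing notes. GCRMA presses dim probe sets to the bottom of the scale, so differences there are uncertain in size. The sources used here do not say whether the table was filtered further.

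Of 20242 probe sets, 28 Affymetrix controls were set aside for RNA quality, and 16896 were tested because 2 or more of the 8 arrays reached log2 5 (3318 did not qualify). Symbols are those of GEO's platform annotation, of which RefSeq's GRCr8 gene table changed 0; among tested probe sets 13155 carry a single symbol, 319 carry several and 3422 carry none. The probe set with the highest mean stood for each of 10240 genes. A linear model over the 8 arrays, with a mean for each group, was fitted in R 4.3.3 with limma 3.58.1, leaving 5 residual degrees of freedom, with supine minus prone as the contrast, two-sided tests and Benjamini-Hochberg adjustment over all probe sets tested. On simulated data 34 of 100 probe sets with a log2 difference of 2 and 80 of 100 with one of 4 were called, with 7 false calls. The simulated noise was independent between arrays and had the same spread in all groups. The real arrays have correlated deviations and unequal spreads, so these rates need not hold for them. Alternatives were other filters, the 6 ventilated arrays alone, the replicate block, 2 rescalings, an intensity trend, array weights, the mean of probe sets, each array left out and, added after seeing the data, a spike-in covariate.

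50 gene lists (33 of functions, 17 of cell types) hold 827 names, of which 647 were tested and the others not analysed here. They are described by counts and medians. The members and lists were chosen with earlier results of these data known. Named genes are Dusp1 and its family; the 12 smallest p and 8 largest differences per direction among genes without overlap and with a group mean of log2 7 or above; and per list up to 3 genes per direction plus those with an unadjusted p under 0.05. Of 91 genes, 5 (Egr1, Atf3, Nr4a2, Klf6 and Hspa1a) fall outside this rule and were chosen after their values were seen. All 5 belong to the early or heat shock lists and averaged lower in supine lungs. Deviations from the group means correlated across probe sets at 0.72, 0.29 and 0.20 between prone and supine arrays of 1 number. All exceed the set threshold of 0.1, and the replicate block was fitted as an alternative only. Deviations cancel out within each group of 3 arrays, so the link of the replicates numbered 1 constrains the other correlations. Prone replicate 3 correlated more with supine replicate 2 (0.40), and prone replicate 2 with supine replicate 3 at 0.19. The correlations therefore cannot show that numbers 2 and 3 pair the arrays. Promoters were read as 250 bases before the start.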

Additional observations from a re-analysis of the deposited data

Results flagged for a closer look

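Control probe sets that enter no comparison stood above both non-ventilated arrays on some ventilated ones. The 3′ minus 5′ difference of supine replicate 3 was 9.10 for actin and 8.41 for GAPDH, against at most 4.06 and 1.06 in non-ventilated lungs. A probe set for 5S ribosomal RNA read 10.35 on prone replicate 2, 9.88 on prone replicate 3 and 8.75 on supine replicate 3, against 5.13 and 7.51 in non-ventilated lungs. The mean of 18 spike-in probe sets was 12.07 on prone replicate 2 and 12.46 on supine replicate 3, against 10.86 and 10.93. The groups of 3 arrays were too small for a test of single outlying arrays.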

How the results depend on the processing

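Of 1532 differences of named genes under 18 alternatives, 1524 kept their direction. The 8 that turned came from 5 genes. With 1 array left out, Dusp5 ranged from -0.20 (without supine replicate 3) to 0.98, Hsf1 from -0.08 (without supine replicate 1; -0.00 without prone replicate 2) to 0.85 and Il6 from -3.52 to 1.45 (without supine replicate 2) and Cd79b from -1.18 to 0.94 (without prone replicate 2; 0.19 and 0.37 without supine replicates 1 and 3), and Ddx21 was -0.03 as the mean of its probe sets. Probe sets past Benjamini-Hochberg adjustment numbered 0 to 3 when 1 array was left out: 3 without prone replicate 1 (Asph and 2 without a symbol), 1 without prone replicate 2 (RT1-Bb, 10.02) and 1 without supine replicate 2 (C2cd4b, 4.32). The count at an unadjusted p under 0.05 was 691. It was 400 on the 6 ventilated arrays, 1506 with array weights and 270 to 2265 with 1 array left out. With the replicate block it was 1324, and the block changed no call, since 0 passed adjustment. Among the ventilated arrays the array weights went from 0.28 on prone replicate 1 to 1.81 on prone replicate 2.

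Early factors at an unadjusted p under 0.05 and lower in supine lungs numbered 5, against 3 on the 6 ventilated arrays, 8 with an intensity trend or array weights, 10 with the spike-in covariate, an alternative chosen after seeing the data, and 2 to 10 with 1 array left out. The 13 heat shock genes became 7 to 16 with 1 array left out. The same count over all 10240 genes moved as well. It was 114 in the main fit, 67 on the 6 ventilated arrays and 128 with an intensity trend. Array weights gave 228 and the spike-in covariate 169. With 1 array left out it went from 51 (without prone replicate 2) to 359 (without prone replicate 1). Of 900 list medians, 23 in 13 lists moved by more than 1 SD. The causes were not tested. With 3 arrays a group, differences under about 0.96, the reach of the 95% interval on either side, could not be resolved for the median probe set.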
